A study of Mus musculus with 6 samples.

Results

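Aminoacyl-tRNA synthetases are the enzymes that load each amino acid onto its tRNA, the step that precedes protein synthesis. Mammalian cells keep a cytosolic set for the translation of nuclear transcripts and a second, nuclear-encoded set that is imported into mitochondria and serves the translation of mitochondrial transcripts. A few genes supply both compartments, among them Gars (glycyl-tRNA synthetase) and Kars (lysyl-tRNA synthetase). Several cytosolic members are known targets of ATF4, the transcription factor of the amino acid response.

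The genes described here were 36 listed synthetases, 20 cytosolic and 16 mitochondrial, where a symbol ending in 2 was taken as mitochondrial. Of these, 35 (19 cytosolic and 16 mitochondrial) were found by symbol in the GENCODE M21 annotation, out of 22028 protein-coding genes. Mars1 was not found under that symbol and was left out. Gars and Kars counted as cytosolic by their names, although their products work in both compartments.

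CDK6 is a cell cycle kinase that lacks a DNA-binding domain of its own and is found on chromatin through other proteins. Its occupancy was measured by ChIP-seq against the HA tag in mouse pre/pro-B cells that were transformed by BCR-ABL(p185) and lacked endogenous Cdk6 (Cdk6-/-). The cells overexpressed HA-tagged wildtype CDK6 (CDK6-WT, n = 2 libraries) or the HA-tagged kinase-inactive mutant CDK6-K43M (n = 2). The question behind the comparison is whether loss of kinase activity alters where CDK6 sits on chromatin. Both groups share the BCR-ABL oncogene, the Cdk6 deletion and the ectopic tagged protein, and the sources used here do not say whether libraries with different replicate numbers came from separate cultures. p-values therefore measure the spread between libraries, which may be technical.

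Each library had its own list of peaks called by MACS2, with 35189 and 34729 peaks in CDK6-WT replicates 1 and 2, and 39797 and 37304 peaks in CDK6-K43M replicates 1 and 2. The lists give no read totals, so the sequencing depth behind a peak is unknown. A gene was called bound in a list when a peak overlapped by at least 1 bp the stretch between 2000 bp before and 200 bp after any of its annotated transcript starts. The strength of a promoter peak is given as its percentile by −log10 q within its own list, where 100 is the strongest peak, because −log10 q itself depends on depth.

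The stretches of mouse sequence shown next lie at the summits of promoter peaks and are given 5′ to 3′ on the strand of the gene, in GRCm38 (mm10) coordinates. Vars and Mars2 are shown because their promoter peaks ranked highest in the cytosolic and the mitochondrial set, and Gars because it ranked next to Vars and holds a match to the amino acid response element. Each covers the summit with 50 bases to either side, in the list where the gene ranked highest, and no annotated exon overlaps any of them. Capitals mark motif matches, which are the reverse complement of the amino acid response element in Gars and of the NFY box in Mars2.
Vars, chr17:35000823-35000923 (+): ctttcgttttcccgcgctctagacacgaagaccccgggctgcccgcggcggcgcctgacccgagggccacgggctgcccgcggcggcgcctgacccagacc
Gars, chr6:55037886-55037986 (+): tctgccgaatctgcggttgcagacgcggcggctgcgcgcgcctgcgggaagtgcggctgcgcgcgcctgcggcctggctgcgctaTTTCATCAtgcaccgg
Mars2, chr1:55237070-55237170 (+): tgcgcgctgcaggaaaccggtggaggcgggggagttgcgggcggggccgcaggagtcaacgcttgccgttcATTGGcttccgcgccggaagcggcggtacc

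The promoters of Cars, Yars and Iars also held a match to the amino acid response element near the summit. These matches are shown with 10 bases to either side, the match in capitals.
Cars, chr7:143600046-143600073 (−): ggcgccgcggTTGCATCAgattctggaa
Yars, chr4:129189896-129189923 (+): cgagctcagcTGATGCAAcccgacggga
Iars, chr13:49682127-49682154 (+): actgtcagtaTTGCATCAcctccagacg

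CDK6 peaks were found at nearly all synthetase promoters, in cells with either form of the kinase. All 35 genes had a promoter peak in both replicate 1 lists. In the replicate 2 lists, 29 of 35 (82.9%) had a peak with CDK6-WT and 28 of 35 (80.0%) with CDK6-K43M. Among all protein-coding genes, a promoter peak was present in 47.0% and 40.1% of genes in CDK6-WT replicates 1 and 2, and in 48.5% and 39.4% in CDK6-K43M replicates 1 and 2. A peak was present in all 4 lists for 27 of 35 synthetases (77.1%), where the share over protein-coding genes was 33.2%. With at least 3 of 4 lists, the study's definition of a site bound by both variants, 30 of 35 synthetases (85.7%) and 41.3% of genes were bound. The excess over the background depended on the peak threshold. With a minimum −log10 q of 5, the all-list share was 48.6% against 23.5%, and with a minimum of 10 it was 8.57% (Vars, Gars and Mars2) against 8.41%.

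Synthetase promoters were mostly CpG-rich, a feature that the choice of members did not use. The ratio of observed to expected CpG within 500 bp of the reference start had a median of 0.727 over the 35 genes and of 0.571 over protein-coding genes, and it was at least 0.6 in 28 of the 35. Among the 10441 protein-coding genes at or above that ratio, 55.5% had a promoter peak in all 4 lists, while 22 of the 28 CpG-rich synthetases (78.6%) did. The lowest ratio, 0.275, belonged to Wars (tryptophanyl-tRNA synthetase), whose peaks lay at an annotated start upstream of its reference start.

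**Figure D1:**
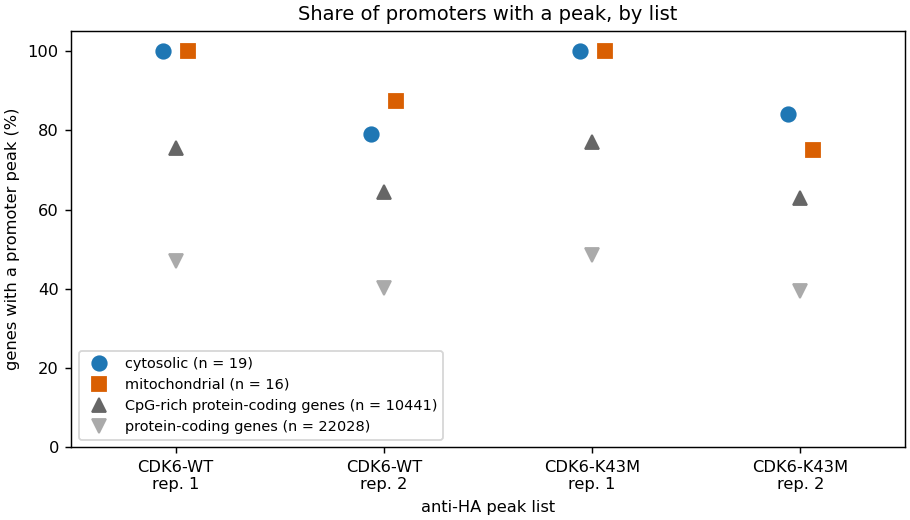
Percent of genes with a promoter peak (y axis) in each of the 4 anti-HA peak lists (x axis) for cytosolic synthetases, mitochondrial synthetases, CpG-rich protein-coding genes and all protein-coding genes; each point is 1 list. Both synthetase sets are at 100% in the replicate 1 lists and between 75.0% and 87.5% in the replicate 2 lists, above both gene backgrounds in every list.

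The cytosolic and mitochondrial sets were bound at similar shares. A peak in all 4 lists was present for 15 of 19 cytosolic genes (78.9%) and 12 of 16 mitochondrial genes (75.0%), a difference of −3.95 percentage points. In CDK6-WT replicate 2 the mitochondrial set had the larger share (14 of 16 against 15 of 19), and in CDK6-K43M replicate 2 the smaller (12 of 16 against 16 of 19). The mitochondrial minus cytosolic share thus changed sign between the replicate 2 lists, at 8.55 and −9.21 percentage points, and was 0 in both replicate 1 lists. Over the 4 lists this per-list difference had a mean of −0.164 and an SD of 7.25 percentage points, so it did not exceed the spread between lists. Both sets were at 100% in the replicate 1 lists, so this spread rests on the replicate 2 lists.

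Where a peak was present in all 4 lists, the sets did not differ in rank beyond the spread between lists. The median percentile of the 15 cytosolic genes was 88.7 and 56.1 in CDK6-WT replicates 1 and 2 and 83.0 and 58.4 in CDK6-K43M replicates 1 and 2. The 12 mitochondrial genes had medians of 86.3, 64.5, 88.4 and 58.4 in the same order. The mitochondrial median was higher in 2 lists, lower in 1 and equal in 1, with a mean difference of 2.81 ± 4.94 percentile points (SD over 4 lists). The equal medians, in CDK6-K43M replicate 2, are a tie, as both fell on a −log10 q value (7.87) that 928 peaks of that list share. The medians over the 7312 protein-coding genes with a peak in all 4 lists were 84.3, 63.4, 86.1 and 62.8.

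**Figure D2:**
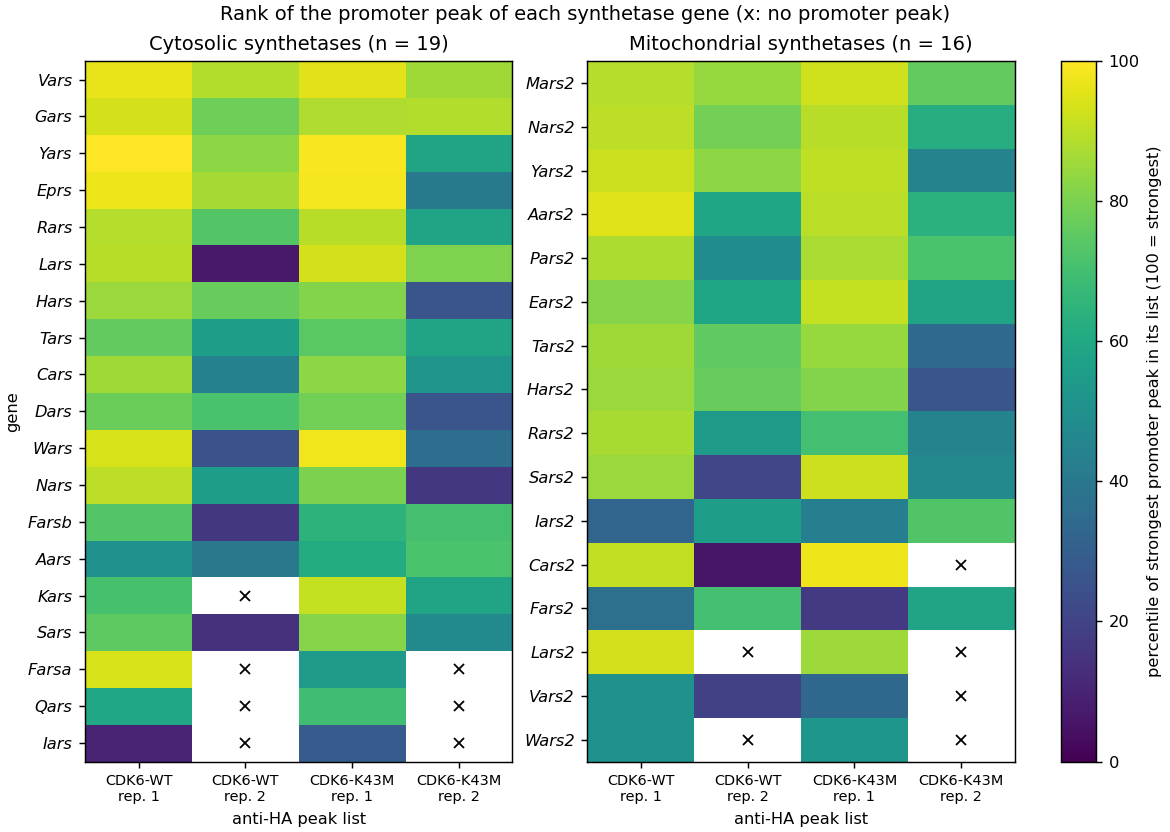
Percentile of the strongest promoter peak (colour, 100 is the strongest peak of its list) for each synthetase gene (rows) in the 4 anti-HA peak lists (columns), with cytosolic genes on the left and mitochondrial genes on the right, ordered by the mean with absent peaks set to 0. Crosses mark the 8 genes without a promoter peak in at least 1 list, and all crosses lie in the replicate 2 columns.

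Vars (valyl-tRNA synthetase) carried the highest-ranked promoter of the family. Its percentiles were 96.8 and 88.5 in CDK6-WT replicates 1 and 2 and 95.5 and 85.8 in CDK6-K43M replicates 1 and 2, with fold enrichments over local background of 13.8, 10.3, 10.5 and 9.34. The 4 summits lay between −151 and −114 bp from the start at chr17:35000987, with 37 bp between the outermost. Vars was the only member above the 85th percentile in every list.

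Gars followed with 93.6 and 77.8 with CDK6-WT and 88.1 and 88.4 with CDK6-K43M, and its summits were between −71 and −24 bp from the start. Mars2, the mitochondrial methionyl-tRNA synthetase, came next with 88.7 and 84.5 with CDK6-WT and 92.8 and 75.9 with CDK6-K43M. It has a single annotated start and the highest CpG ratio of the family, 1.04. These promoters ranked high in both variants and both replicate numbers, in contrast to the next pair.

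Yars (tyrosyl-tRNA synthetase) had the strongest single peak of all members, at percentile 99.7 and a fold enrichment of 24.9 in CDK6-WT replicate 1. Its other percentiles were 83.0 in CDK6-WT replicate 2, 99.1 in CDK6-K43M replicate 1 and 58.4 in CDK6-K43M replicate 2. Eprs, which encodes the fused glutamyl- and prolyl-tRNA synthetase, had 97.4 and 86.7 with CDK6-WT and 98.6 and 40.3 with CDK6-K43M. For both genes CDK6-K43M replicate 2 stood below the other 3 lists.

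The 5 lowest of the 27 genes were Farsb, Aars, Sars, Iars2 and Fars2, with mean percentiles from 56.2 down to 45.6. Fars2 (mitochondrial phenylalanyl-tRNA synthetase) and Iars2 (mitochondrial isoleucyl-tRNA synthetase) were the only members for which both replicate 1 lists ranked below both replicate 2 lists. Fars2 had 36.8 and 16.9 in the replicate 1 lists of CDK6-WT and CDK6-K43M and 70.2 and 58.4 in their replicate 2 lists. Iars2 had 32.4 and 43.1 in the replicate 1 lists and 56.1 and 72.7 in the replicate 2 lists. At Iars2 the summits also moved, from 49 and 29 bp downstream of the start in the replicate 1 lists to 896 and 625 bp downstream, in an intron, in the replicate 2 lists.

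Farsb, a subunit of the cytosolic phenylalanyl-tRNA synthetase, had percentiles of 73.2 and 16.4 with CDK6-WT and 64.8 and 70.5 with CDK6-K43M. Sars (seryl-tRNA synthetase) had 75.2 and 14.2 with CDK6-WT and 82.0 and 47.8 with CDK6-K43M. In both genes CDK6-WT replicate 2 was the lowest list.

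In all, 8 promoters lacked a peak in at least 1 list, and every absence was in a replicate 2 list. Farsa, Iars, Qars, Lars2 and Wars2 had no promoter peak in either replicate 2 list, whichever CDK6 variant was present. Such a pattern held for 5 of 35 synthetases (14.3%) and for 5.67% of protein-coding genes. These shares are not on a like base. All 35 synthetases had a peak in both replicate 1 lists, where 47.0% (CDK6-WT) and 48.5% (CDK6-K43M) of protein-coding genes had one. The opposite pattern held for 1.28% of genes, and no synthetase could show it. The replicate 1 percentiles of the 5 synthetases with CDK6-WT and CDK6-K43M were 93.8 and 53.7 for Farsa, 93.0 and 85.3 for Lars2, 60.0 and 69.5 for Qars, 50.8 and 52.6 for Wars2, and 9.68 and 28.5 for Iars. Farsa encodes the other subunit of the cytosolic phenylalanyl-tRNA synthetase, so that this enzyme had a peak in all 4 lists at Farsb and in 2 at Farsa. A peak missing from a list may lie under the calling threshold there and is not evidence of absent binding.

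The remaining 3 genes lacked a peak in a single list. Kars was without one in CDK6-WT replicate 2 and had percentiles of 70.8 in CDK6-WT replicate 1 and 91.3 and 58.4 in the CDK6-K43M lists. Cars2 (mitochondrial cysteinyl-tRNA synthetase) was without one in CDK6-K43M replicate 2 and had 90.7 and 5.63 with CDK6-WT and 97.6 in CDK6-K43M replicate 1. Vars2 (mitochondrial valyl-tRNA synthetase) also lacked a peak in CDK6-K43M replicate 2. It had 51.6 and 19.5 for CDK6-WT, and 33.2 in CDK6-K43M replicate 1 from a different peak, whose summit lay in an intron 1280 bp downstream of the reference start.

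Most summits stood close to a transcript start. Of 127 promoter peaks over the 4 lists, 99 had the summit within 100 bp of an annotated start of the gene and 124 within 500 bp, and the median position was −34 bp (upstream). Peaks were counted per gene and list, so the peak that Hars and Hars2 share counted for both genes in each list. By annotation, 75 summits were upstream of the gene, 48 in an exon and 4 in an intron. Because members have a median of 6 annotated starts, and Qars has 29, the nearest start was not always the reference start. In 8 of the 127 peaks the summit was over 500 bp from the reference start, 4 of them at Wars. The strongest peaks of the 4 lists formed 1 region in 26 of the 27 genes, the exception being Aars. The summits of the replicate 1 lists were a median of 23 bp apart and those of the replicate 2 lists 49 bp apart. Peaks were picked by overlap with windows around annotated starts, which favours nearness to a start. These counts and distances are given for the synthetases alone, so none is shown to be particular to them.

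**Figure D3:**
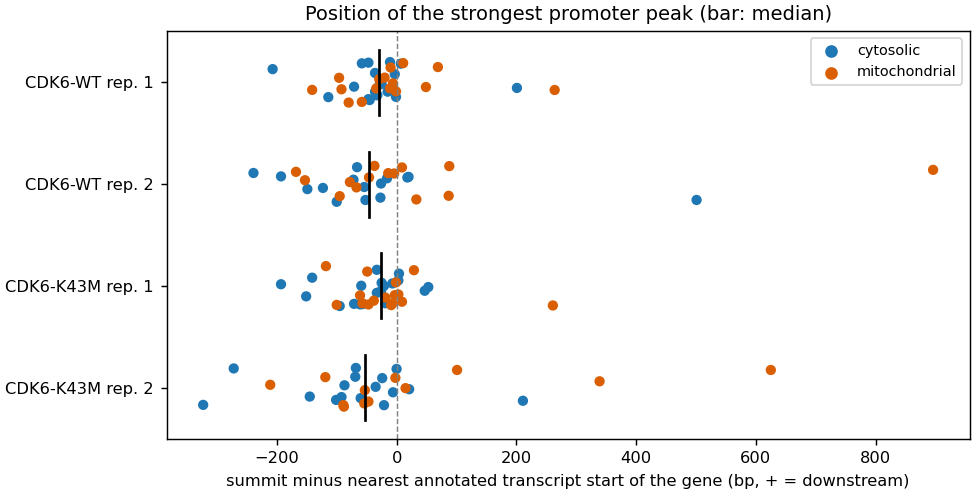
Distance of the summit of each synthetase's strongest promoter peak from the nearest annotated transcript start of the gene (x axis, bp, positive is downstream) in each list (rows); each point is 1 gene and the bar is the median, from −26 bp to −53.5 bp. Most points lie within 100 bp of the start in every list, and the 896 and 625 bp points of the replicate 2 lists are Iars2.

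A group of 10 of the 35 members shared their promoter peak with the promoter of another protein-coding gene. The count is given for the synthetases alone, without the share over other bound genes, and is not shown to be particular to them. Hars and Hars2, the cytosolic and mitochondrial histidyl-tRNA synthetases, are divergent neighbours on chromosome 18 and had the same peak in every list, so that the 27 genes represent 26 separate promoters. Other pairs were Kars with Terf2ip, Sars2 with Mrps12 (a mitochondrial ribosomal protein), Yars with S100pbp, Rars2 with Orc3, Wars with Wdr25, Ears2 with Ubfd1, Fars2 with Lyrm4 and, in 2 lists, Aars with Ddx19b. A peak at these promoters cannot be assigned to either gene.

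Motifs were searched within 100 bp of the summit on both strands, for the 27 genes with a peak in all 4 lists and for 7310 of the 7312 such protein-coding genes, those on assembled chromosomes. The amino acid response element TGATGNAA, the C/EBP-ATF composite site, was present in 4 of 27 synthetases (14.8%), namely Cars, Gars, Nars and Yars, and in 1.20% of the protein-coding genes. All 4 were cytosolic, which made 4 of 15 cytosolic and 0 of 12 mitochondrial genes. Beside a share of 1.20%, a count of 0 among 12 is near the background. Each match lay close to an annotated start, at −4 bp in Cars, −32 in Gars, 2 in Nars and 8 in Yars. Iars, with a peak in the replicate 1 lists alone, held a match too, at 11 bp. In flanks of the same length 1000 bp to either side of the summits, the element was present in 2.61% of windows, above its share at the summits.

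The ETS motif CCGGAAGT was present in 8 of 27 synthetases (29.6%) and in 9.37% of protein-coding genes. The 8 were Cars, Lars, Nars, Wars, Pars2, Rars2 and the pair Hars and Hars2, which share a single match window. YY1 (AAGATGGCG) was found in the mitochondrial Aars2 and Yars2, 7.41% against 3.32%, and GFY (ACTACAATT) in Lars alone, 3.70% against 0.752%. NFY (CCAAT) was present in 6 of 27 (22.2%) and in 23.2% of genes. The E-box CACGTG was present in Farsb alone of the 27, against 9.26% of genes. Among members outside the 27, ETS was found in Farsa, YY1 in Farsa and Wars2, NFY in Cars2 and Iars, and the E-box in Iars. NRF-1 and SP1 (GGGGCGGGG) had no match in the 27 genes, where 3.60% and 12.8% of protein-coding genes had one. For NRF-1 a count of 0 among 27 is near the background. None of these motifs contains another. A match describes the letters in the window and not binding by the factor, and the lack of a match does not show the lack of a site.

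**Figure D4:**
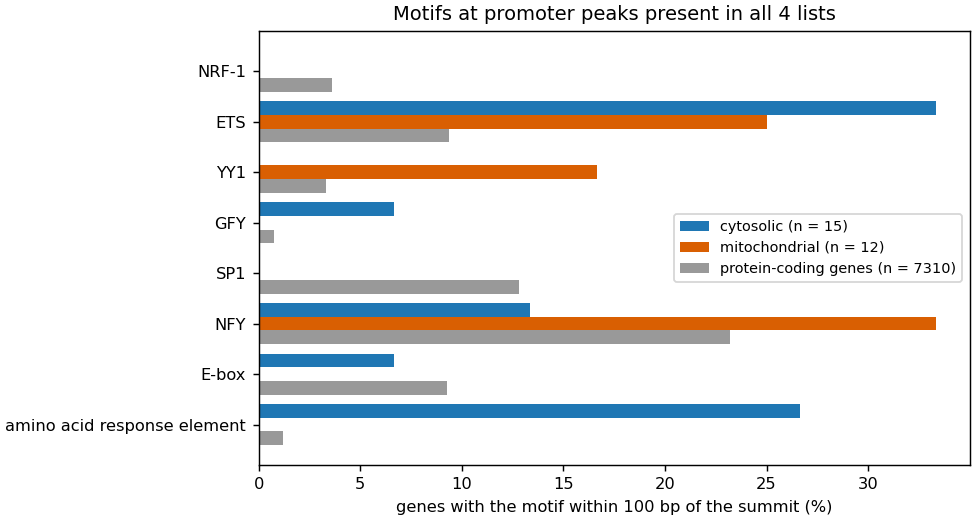
Percent of genes with each motif within 100 bp of the summit (x axis) for cytosolic synthetases (n = 15), mitochondrial synthetases (n = 12) and protein-coding genes (n = 7310) with a promoter peak in all 4 lists. The amino acid response element is present in 4 cytosolic and 0 mitochondrial synthetases and in 1.20% of protein-coding genes. NRF-1 and SP1 have no match in either synthetase set, against 3.60% and 12.8% of protein-coding genes.

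Occupancy of the synthetase promoters did not differ between CDK6-WT and CDK6-K43M beyond the spread between libraries. The share with a peak was 91.4 ± 12.1% with CDK6-WT and 90.0 ± 14.1% with CDK6-K43M (SD, n = 2 each). The difference of −1.43 percentage points had p = 1.0 (exact permutation test, two-sided). With every synthetase bound in both replicate 1 lists, the test returns that p for any replicate 2 shares and decides nothing. Where a p is not fixed in this way, the design cannot go below 0.33. Within replicate number 1 the shares were equal, and within number 2 CDK6-K43M was lower by 1 gene. A peak in both lists of one variant and neither list of the other was found in 0.0817% of protein-coding genes for CDK6-WT and in 0.241% for CDK6-K43M. No synthetase could show either pattern, since all 35 had a peak in both replicate 1 lists, so the count of 0 says nothing about the variants.

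Peaks of the 4 lists were also merged into regions. Counted per gene, the synthetase promoters held 32 regions bound by both variants, in 30 genes, and 12 further regions that met neither definition. The region that Hars and Hars2 share counts for both genes. These region counts were not made over protein-coding genes and are not shown to be particular to the synthetases. No synthetase promoter overlapped a region unique to CDK6-WT or to CDK6-K43M. Over protein-coding genes 0.222% and 0.713% of promoters did, so that a count of 0 among 35 is near the background.

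The median rank over the 27 genes did not differ between variants beyond the spread between libraries. The median percentile was 86.9 and 58.7 in CDK6-WT replicates 1 and 2 and 87.3 and 58.4 in CDK6-K43M replicates 1 and 2. The variants averaged 72.8 ± 19.9 and 72.8 ± 20.5 (SD, n = 2 each), a difference of 0.035 percentile points (exact permutation p = 1.0). The replicate numbers stood 28.2 points apart with CDK6-WT and 29.0 with CDK6-K43M. In 22 of 27 synthetases (81.5%) both replicate 1 lists ranked above both replicate 2 lists, as in 69.4% of the bound protein-coding genes, and in 2 of 27 the order was reversed, as in 10.1%.

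Single genes varied more than the medians. CDK6-K43M ranked higher within both replicate numbers in 6 of 27 synthetases (22.2%, against 29.1% of bound genes) and lower in 10 of 27 (37.0%, against 21.8%). The 10 lower genes were Fars2, Hars, Hars2, Nars, Nars2, Rars2, Tars2, Vars, Yars and Yars2, where Hars and Hars2 are the same peak. The 6 higher genes were Aars, Iars2, Lars, Sars, Sars2 and Wars. No test of a single gene can pass a threshold with 2 libraries per variant.

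Lars (leucyl-tRNA synthetase) had the largest difference of these genes. Its percentiles were 89.4 and 6.78 with CDK6-WT and 93.4 and 80.6 with CDK6-K43M, so that 3.98 points separated the variants in number 1 and 73.8 in number 2. The value rested on CDK6-WT replicate 2, which stood apart from the other 3 lists.

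The shared peak of Hars and Hars2 had 84.8 and 76.7 with CDK6-WT and 81.6 and 26.4 with CDK6-K43M. Nars (asparaginyl-tRNA synthetase) had 89.9 and 56.1 with CDK6-WT and 80.3 and 16.2 with CDK6-K43M. In both promoters the lowest list was CDK6-K43M replicate 2, and the CDK6-K43M minus CDK6-WT difference was larger in number 2 (−50.3 at Hars and Hars2, −39.8 at Nars) than in number 1 (−3.19 and −9.63).

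Aars (alanyl-tRNA synthetase) was the only synthetase whose CDK6-K43M percentiles (61.4 and 71.7) both exceeded its CDK6-WT percentiles (50.8 and 39.8). That is 1 of 27, where 6.77% of bound genes had this order. The opposite order held for none of the 27 and for 3.61% of bound genes. The Aars values come from 2 separate peaks, with summits at −193 and −141 bp from the nearest start in CDK6-WT replicate 2 and CDK6-K43M replicate 1 and at 201 and 211 bp in the other lists.

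**Figure D5:**
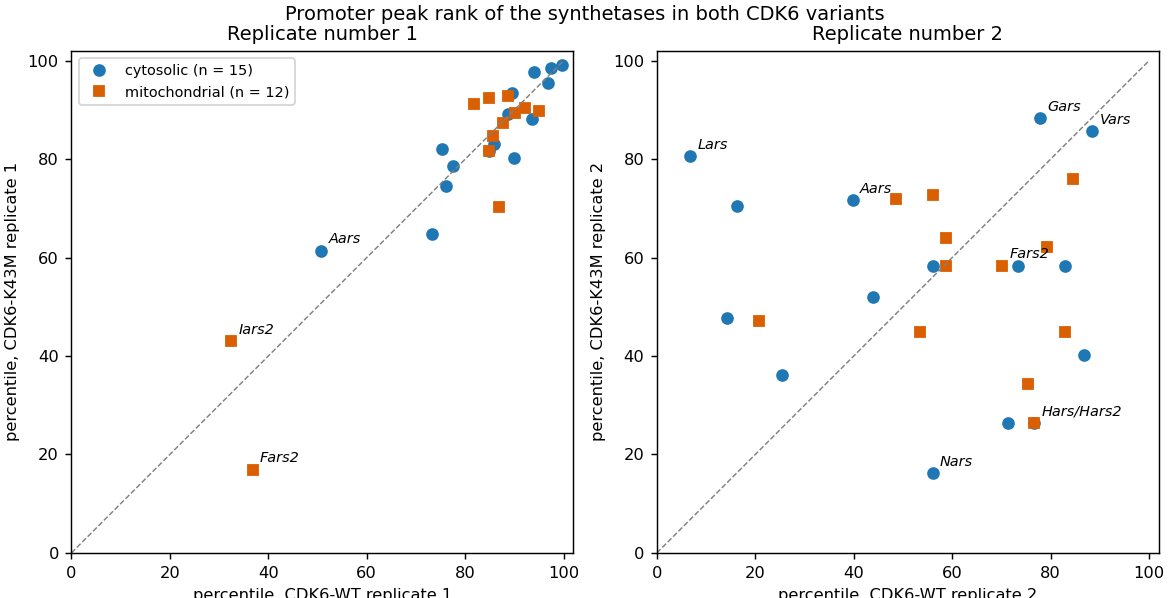
Percentile of the promoter peak with CDK6-K43M (y axis) against CDK6-WT (x axis) for the 27 synthetases with a peak in all 4 lists, in replicate number 1 (left) and number 2 (right); the dashed line marks equal percentiles. Points lie near the line in number 1 (Pearson r = 0.914) and scatter in number 2 (r = −0.087), where Lars lies far above the line and Nars and the pair Hars and Hars2 lie below it.

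The order of the synthetases was shared between variants in replicate number 1 alone. Over the 27 genes the CDK6-WT and CDK6-K43M percentiles had a Pearson r of 0.914 and a Spearman rho of 0.796 in number 1, and of −0.087 and −0.019 in number 2. Over the 7312 bound protein-coding genes, r was 0.791 in number 1 and 0.582 in number 2. These values are across genes, which share libraries and are not independent replicates, and they are descriptions. Every list held peaks with identical −log10 q values, which receive the same percentile. In CDK6-WT replicate 2, Nars, Tars and Iars2 shared a value with 747 peaks in all, and in CDK6-K43M replicate 2, Dars shared that of the Hars and Hars2 peak with 1938. In the latter list Kars, Rars, Tars, Yars, Ears2 and Fars2 all had 7.87, a value found at 928 peaks of that list, so their percentile of 58.4 is the same by construction.

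Other genes of tRNA charging and translation also carried CDK6 peaks. Of 10 charging partners, all had a promoter peak in both replicate 1 lists and 8 in all 4 lists, beside 47.0% and 48.5% of protein-coding genes in the replicate 1 lists and 33.2% in all 4 (55.5% of CpG-rich genes). These include Aimp1 and Aimp2, scaffold proteins of the multisynthetase complex. Aimp1 had percentiles of 96.2 and 70.2 (CDK6-WT) and 88.7 and 81.3 (CDK6-K43M). Aimp2 had 67.2 and 25.5 (CDK6-WT) and 78.6 and 69.9 (CDK6-K43M). The partners missing from a list were Eef1e1, absent from CDK6-WT replicate 2 and with 30.0 in CDK6-WT replicate 1 and 45.4 and 12.3 in the CDK6-K43M lists, and Qrsl1, absent from both replicate 2 lists. Qrsl1, a subunit of the mitochondrial glutamyl-tRNA amidotransferase, had 84.9 and 85.0 in the replicate 1 lists.

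A peak in 3 or more lists was present for all 8 mitochondrial translation factors, 4 of which had it in every list, beside 41.3% and 33.2% of protein-coding genes. For a peak in every list, 4 of 8 is below the 55.5% of CpG-rich genes. Tufm, the mitochondrial elongation factor Tu, had 98.6 and 65.2 with CDK6-WT and 98.3 and 74.7 with CDK6-K43M. Gfm1 and Mtif2 lacked a peak in CDK6-K43M replicate 2, with 68.6, 10.2 and 89.9 for Gfm1 and 78.9, 30.7 and 75.6 for Mtif2 in the other lists. Mtif3 and Mrrf lacked one in CDK6-WT replicate 2, with 67.2, 63.0 and 12.3 for Mtif3 and 65.7, 39.2 and 61.2 for Mrrf in the other lists. Of 5 cytosolic elongation factors, 4 had a peak in all 4 lists, against the same background of 33.2%, and Eef2 lacked one in CDK6-WT replicate 2, with 91.5, 93.2 and 19.5 in the others.

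Of 12 amino acid response genes, 9 had a promoter peak in all 4 lists, where 33.2% of protein-coding genes and 55.5% of CpG-rich genes did. Atf4 itself had 95.7 and 69.2 with CDK6-WT and 95.8 and 33.0 with CDK6-K43M. Slc7a11, the cystine transporter, had no promoter peak in any list. Eif2ak4, the amino acid sensor kinase GCN2, lacked one in CDK6-K43M replicate 2 and had 50.1, 4.13 and 63.4 in the other lists, and Chac1 lacked one in CDK6-WT replicate 2 and had 60.6, 62.2 and 36.2. Asns and Trib3, 2 of the 9, held the amino acid response element near the summit, and none of the 8 bound charging partners did. Asns ranked low in both CDK6-WT lists, at 9.68 and 1.85, with 28.5 and 54.4 with CDK6-K43M.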

How the data were processed

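Anti-HA ChIP-seq libraries were grouped by CDK6 variant and replicate number from their titles, and 2 input libraries were not analysed here. According to the study's methods and the submitters' processing notes, reads were trimmed (Trimmomatic 0.36), aligned to mm10 (BWA 0.7.15) and peaks called per library (MACS2 2.1.0). The deposited lists give each peak's fold enrichment (a ratio over local background), −log10 q and summit offset, and were used as deposited. Promoters were windows around every transcript start of GENCODE M21, whereas the authors used M13. The strongest overlapping peak by −log10 q represented a gene. Variants were compared over libraries by exact two-sided permutation of 6 assignments. Sequence came from RefSeq GRCm38.p6. The reference start was that of the best APPRIS transcript. Overlaps were tested on simulated peaks and against bedtools 2.31.1, and Python 3.11.15, numpy 2.4.6, pandas 2.3.3 and pysam 0.24.0 were used.

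Members and gene lists were chosen with earlier results of these data known, and 2 charging partners beyond the 10 counted are not reported here. Genes given in every list are those lacking a peak somewhere, the 5 highest and 5 lowest by mean percentile, the 5 with the largest difference between variants in the same direction within both replicate numbers, and Kars, Gars, Eprs, Hars and Hars2. The other genes named carry a motif or shared peak, or are the members of a count. Values of Aimp1, Aimp2, Tufm, Atf4 and Asns were printed outside these rules, as examples. Motif matches in or next to transcribed sequence are printed as 28 bases. Alternatives were stricter peak thresholds, other promoter definitions, ranking by fold enrichment, absent peaks at percentile 0, a replicate block and omission of each library in turn. Including Mars1 was added after the data were seen.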

Additional observations from a re-analysis of the deposited data

How the results depend on the processing

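The number of synthetase promoters with a peak in all 4 lists fell from 27 to 17 with a minimum −log10 q of 5, and to 3 with a minimum of 10 or with the top 10000 peaks of each list. It was 22 to 28 under the other definitions and 27 to 29 when a library was left out. The share over protein-coding genes under the first 3 settings was 23.5%, 8.41% and 5.98%, beside 48.6%, 8.57% and 8.57% of synthetases.

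Differences between variants had no stable direction, and no exact p was below 0.67 in any alternative. The CDK6-K43M minus CDK6-WT share with a peak, −1.43 percentage points, became 2.86 with a minimum −log10 q of 5, −11.4 with 10, −14.3 in the top 10000 peaks, −2.86 when the summit had to lie in the window and 0 with 1 reference start per gene. Leaving out 1 library gave −11.4 to 8.57, positive without CDK6-WT replicate 1 or CDK6-K43M replicate 2 and negative without either of the others. The difference in median percentile, 0.035, became −10.8 with a minimum −log10 q of 5, −1.13 with 10, −2.65 in the top 10000 peaks, −3.32 when the summit had to lie in the window, −0.53 by fold enrichment, −4.76 with absent peaks at percentile 0 and −2.86 with Mars1 included. It was −14.5 to 14.5 when a library was left out, negative without CDK6-K43M replicate 1 or CDK6-WT replicate 2.

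The mitochondrial minus cytosolic share, −3.95 percentage points, became 14.1 with a minimum −log10 q of 5, −12.2 when the summit had to lie in the window and −10.2 with 1 reference start, and was −9.21 to 8.55 when a library was left out, positive without CDK6-K43M replicate 2. The difference in median percentile, 2.81, became −5.85 with a minimum of 5, −11.0 with 10 and −14.0 in the top 10000 peaks, the last 2 over 3 genes, 1.04 by fold enrichment, 1.79 with 1 reference start and 0.968 with Mars1 included, and was 0.578 to 4.57 when a library was left out. The causes of these changes were not tested.

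With the replicate block the variants differed by −1.43 percentage points in share and 0.035 in median percentile (exact sign-flip p = 1.0 for both). For the share this p was fixed, because the variants were equal within replicate number 1. The labels give no pairing beyond the number. The differences between replicates 1 and 2 of the 2 variants had a Pearson r of 0.329 over the 27 synthetases and 0.573 over bound protein-coding genes. The Spearman rho was 0.083 over the synthetases and 0.528 over those genes. Mars1, annotated as Mars in M21 and added after the data were seen, had percentiles of 99.4 and 79.6 in the CDK6-WT lists and of 97.8 and 23.3 in the CDK6-K43M lists. With 2 libraries per variant no exact p can go below 0.33, so these tests could not detect a difference of any size. The lists also give no read totals.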
